A study of Mus musculus with 5 samples.

Results

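The regions described here carry an Olig2 binding event found with an antibody to the native protein and a Hoxc9 binding event found through a Flag tag, but no event of V5-tagged Olig2. Binding events of 4 lists on the 19 autosomes and X were pooled, and events no more than 200 bp from the previous one were chained into regions. A region was a member when it held an event of the native Olig2 list and of the Flag Hoxc9 list and none of the V5 Olig2 list; an event of V5-tagged Hoxc9 could be present or absent. This gave 1695 members out of 58192 regions (2.91%). They held 1747 of the 15697 native Olig2 events (11.1%), 2115 of the 49278 Flag Hoxc9 events (4.29%) and 702 of the 11065 V5 Hoxc9 events (6.34%). The members were thus chosen by the measured presence and absence of events in 3 of the lists, so counts of those events are a description and not a result.

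The cells were motor neuron progenitors grown from mouse embryonic stem cells of the Ainv15 background, engineered so that doxycycline (3 µg/ml) induces a factor with an epitope tag, a short peptide recognised by a standard antibody. All embryoid bodies received 1 µM retinoic acid and 0.5 µM of the hedgehog agonist SAG on day 2, and bound DNA was recovered by ChIP and sequenced. The inducible V5-tagged Olig2 line gave both Olig2 lists on day 4: the native list came without doxycycline and with anti-Olig2, and the V5 list came after doxycycline and with anti-V5. Lines with inducible V5-tagged and inducible Flag-tagged Hoxc9 gave the Hoxc9 lists on day 5 after doxycycline, with anti-V5 (1 list for 2 libraries) and anti-Flag. The mock ChIP, done with anti-V5 on day 4 without doxycycline, was not analysed here. Each condition had 1 list, so nothing below was tested between conditions and no difference has a replicate check. The Olig2 lists share line and day and differ in antibody and induction, which cannot be told apart. The Hoxc9 lists share day and induction and differ in line, tag and antibody, and Olig2 and Hoxc9 lists also differ in day. The labels do not say whether a line was 1 clone, and no RNA was measured, so the labelled cell type was not checked against markers.

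The lists differed in length: for Olig2, 15697 native and 11067 V5 events were used, and for Hoxc9, 11065 V5 and 49278 Flag events. Strength is given as IP reads, the authors' estimate of the reads from the antibody pulldown that belong to an event, beside control reads for the same event. Median IP reads were 31.5, 47.4, 52.8 and 59 in the same order. Library totals are unknown, so reads are compared between regions within a list and not between lists.

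Olig2, a transcription factor of the basic helix-loop-helix family, marks the progenitors of spinal motor neurons and oligodendrocytes. It binds short E-box sequences, usually with a partner of the same family. Hoxc9 is a homeodomain factor that gives motor neurons of the thoracic spinal cord their position along the body axis, and Hox proteins bind AT-rich sites, often beside Pbx and Meis cofactors. At the members, Hoxc9 was the induced, tagged protein, and Olig2 was detected in cells given no doxycycline. Positions are in mouse build mm9, and sites are given without gene names or sequence because the annotation and sequences used here are of another build.

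The members with the strongest binding in both lists lay on several chromosomes and carried V5 Hoxc9 as well. Regions were ordered by the worse of their ranks in the native Olig2 and Flag Hoxc9 lists, where rank 1 has most IP reads. They spread over 8 chromosomes. All 10 had a V5 Hoxc9 event, beside 19.5% of all regions with Flag Hoxc9, but Flag rank helped to choose them and V5 Hoxc9 was frequent at strong Flag events: 81.1% of all members with 200 to 400 Flag IP reads had one. Their native IP reads ran only from 63 to 83, and their Flag IP reads from 265 to 884. These values chose the 10 and are given without a test.

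The leading region lay on chromosome 6 at 142816242 to 142816261, with 83 native Olig2 IP reads against 3.8 control reads and rank 1836. Its Flag Hoxc9 event had 319.3 IP reads against 16.8 control reads and rank 1927, and its V5 Hoxc9 event had 110.6 IP reads. The nearest V5 Olig2 event was 112873 bp away. A pair of regions that followed, on chromosome 10 at 84485818 to 84485932 and on chromosome 2 at 135947598 to 135947818, had 73 and 72 native IP reads. The chromosome 10 region had 436.7 Flag IP reads and 382 V5 Hoxc9 IP reads, which placed it 53 in the V5 Hoxc9 list. At the chromosome 2 region the values were 406.2 Flag and 157 V5 Hoxc9 IP reads. All 3 regions thus held an event of each of the 3 lists, each well above its list's median IP reads. Not all stood as high over control. The fold of V5 Hoxc9 IP over control reads was 4.7 on chromosome 6 and 9.3 on chromosome 10, below that list's median of 13.1. It was 17.8 on chromosome 2. In the same order, native folds were 22, 13.3 and 69.9 (list median 32) and Flag folds 19, 49.3 and 72.6 (list median 22.1).

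The fourth region, on chromosome 16 at 29725027 to 29725427, was unusual in holding 7 events, 3 of them native Olig2. Its strongest native event had 68.6 IP reads and its strongest Flag event 326.9. A V5 Olig2 event with 502 IP reads, rank 35 in that list, lay 4712 bp outside it. The region on chromosome 8 at 8038065 to 8038147 had the most Flag reads of the 10, at 884 (rank 163), beside 68 native IP reads. On chromosome 2 at 74572706 to 74572722, events with 63 native, 580 Flag and 321 V5 Hoxc9 IP reads had positions within 17 bp. The others lay on chromosome 6 at 53688279 to 53688518, chromosome 9 at 8732631 to 8732673, chromosome 4 at 140008511 to 140008701 and chromosome 18. Of the 10, 2 had a V5 Olig2 event within 10000 bp, and the farthest lay 187857 bp away.

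**Figure D1:**
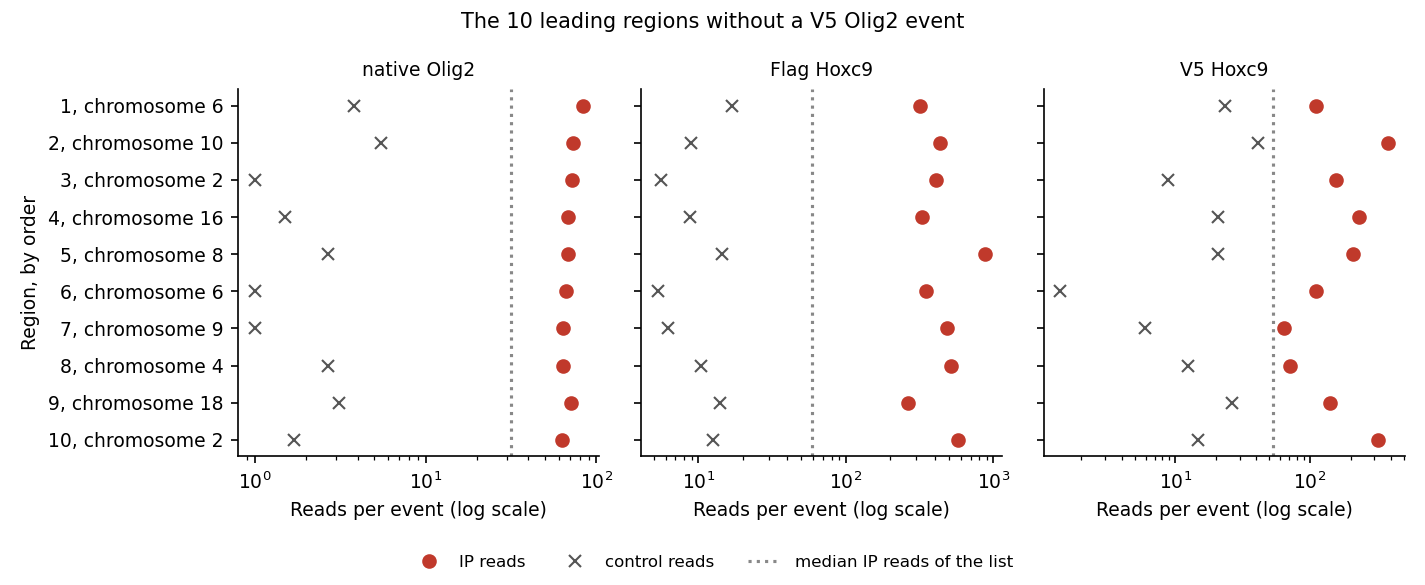
IP reads (red points) and control reads (crosses) of the strongest event in the native Olig2, Flag Hoxc9 and V5 Hoxc9 lists at the 10 leading members, on log axes, with each list's median IP reads as a dotted line. All 10 lie above the median of all 3 lists, between 63 and 83 reads for native Olig2 and between 265 and 884 for Flag Hoxc9.

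Ordering by 1 list alone gave other regions, which were chosen after their values were seen. By native Olig2, the strongest member lay on chromosome 1 at 62683274 to 62683288, with 139 IP reads (rank 719), 170.5 Flag IP reads and no V5 Hoxc9 event. The next, on chromosome 1 at 181497877 to 181497897, had 123 native and 169 Flag IP reads, again without V5 Hoxc9. Only 6 members had more than 100 native IP reads, and 1 of these 6 held a V5 Hoxc9 event, on chromosome 12 at 80999685 to 80999716 with 104.1 IP reads. By Flag Hoxc9, the strongest lay on chromosome 5 at 97647873 to 97648049, with 2244 IP reads (rank 8), 350.5 V5 Hoxc9 IP reads and only 27 native IP reads. The region on chromosome 1 at 82086176 to 82086321 followed with 1630.8 Flag, 447 V5 Hoxc9 and 31.9 native IP reads. None of the 6 leading members by native Olig2 was among the 6 leading by Flag Hoxc9. With 1695 members to draw on, lists this short share few or none by number alone.

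Native Olig2 events at members were weak, and Flag Hoxc9 events had about the strength they had where V5 Olig2 was also found. The comparison is with the 2427 regions that held native Olig2, V5 Olig2 and Flag Hoxc9 events, called both-Olig2 regions from here. Median native IP reads were 26 at members (quartiles 20 to 34) and 57.6 at both-Olig2 regions (34.9 to 98.0). Median Flag IP reads were 86.6 at members (52.7 to 162) and 89.4 at both-Olig2 regions (55 to 163). Flag regions with no Olig2 event, 39411 in number, had a median of 55.7 Flag IP reads. Members also had little more native Olig2 than the 4927 native regions with neither V5 Olig2 nor Flag Hoxc9, whose median was 24. V5 Hoxc9 events, where present, had median IP reads of 74 at members, 86.1 at both-Olig2 regions and 56 at Flag regions without Olig2.

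Position in the lists showed the same asymmetry. In the native list the best member ranked 719, the median member 9759 of 15697, and 30.5% of members fell in the upper 50% of the list, against 79.8% of both-Olig2 regions. In the Flag list the best member ranked 8, 92 members were among the 1000 strongest events, and 69.7% fell in the upper 50%, against 71.5% of both-Olig2 regions. In the native list 2 members were among the 1000 strongest events. Members were 8.08% of regions whose strongest Flag event was in the upper 10% of the list, beside 3.87% of all regions with Flag. For native Olig2 the values were 0.667% and 11.6%. The median −log10 p of the native event was 4.05 at members and 10.4 at both-Olig2 regions, where the lowest value in the list was 2.54. Weak native regions were those that mostly lacked V5 Olig2, as the values by native reads below show, so the rule bears on the native values and they are a description.

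Control reads of the Flag event were higher at members than at Flag regions without Olig2. The strongest Flag event had a median of 4.7 control reads at members, 6.2 at both-Olig2 regions and 2.2 at Flag regions without Olig2. Control reads of the Flag event were above the Flag list's median at 70.7% of members and at 48.3% of Flag regions without Olig2. Among events with 100 to 200 Flag IP reads the medians were 6.2, 8.3 and 4.2 in the same order. With at most 50 Flag IP reads they were 2.1, 2.5 and 2.1, so members stood above Flag regions without Olig2 in the other 4 bins only. Across members, native and Flag control reads rose and fell together (Spearman's rho 0.787, n = 1695), and the sources used here do not say whether the lists shared a control library. A fold of IP over control of 10 or more was seen at the Flag event of 1274 members (75.2%), beside 79.7% of all regions with Flag. At the native event it was seen in 1629 members (96.1%), beside 96% of all regions with native Olig2, and at the V5 Hoxc9 event in 357 of 646 members (55.3%), beside 68.3% of all regions with V5 Hoxc9. What part control reads have in the sharing of sites was not tested.

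**Figure D2:**
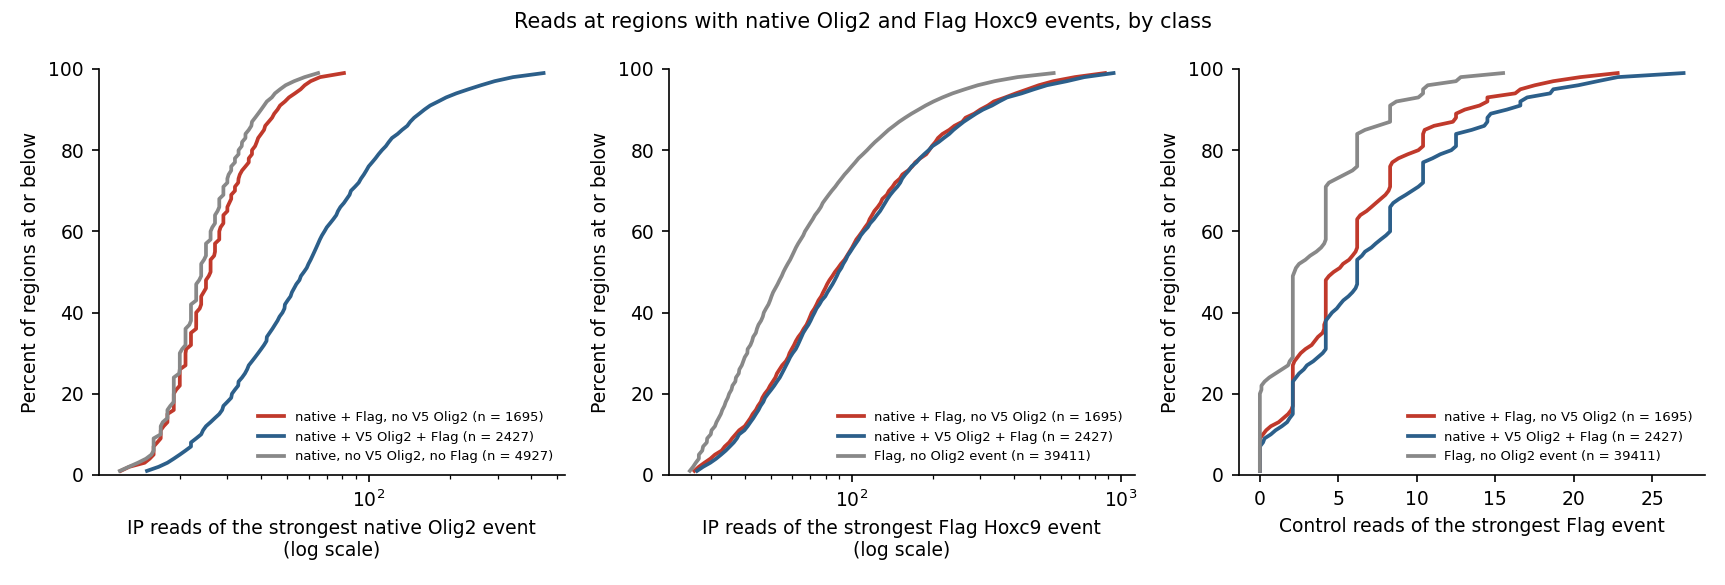
Cumulative percent of regions by IP reads of the strongest native Olig2 event, IP reads of the strongest Flag Hoxc9 event (both on log axes) and control reads of the strongest Flag event, for members (red), regions with native, V5 Olig2 and Flag events (blue) and the reference class named in each panel (grey). Members sit near the grey curve for native Olig2, with a median of 26, and on the blue curve for Flag Hoxc9, with a median of 86.6.

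V5 Olig2 was missing from most weak native Olig2 regions and present at nearly all strong ones, with Flag Hoxc9 or without. Of 4122 regions with native Olig2 and Flag Hoxc9, 1695 (41.1%, Wilson 95% interval 39.6 to 42.6) lacked V5 Olig2. Of 10431 native regions without Flag, 4927 (47.2%, 46.3 to 48.2) lacked it, and the share over all native regions was 45.5%. Flag Hoxc9 was present at 28.3% of all native regions, and members were 25.6% of native regions without V5 Olig2. Intervals here and below cover counting error only, and neighbouring regions are not independent.

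The lower share beside Flag turned round in most bins of native reads, though with overlapping intervals. Lack of V5 Olig2 with Flag fell from 78.1% of 566 regions with at most 20 native IP reads to 49.3% of 606 with 30 to 40, and to 1.02% of 588 with more than 100. Without Flag the values were 73.6% of 2053, 45.6% of 1822 and 1.17% of 685. The share lacking V5 Olig2 was higher with Flag in 6 of 7 bins of native reads, by 2.98 percentage points when bins were weighted by the regions with Flag. Native regions with Flag had the higher native reads to begin with (median 37.8 against 30). The largest gap was at 25 to 30 native reads, where 66.6% with Flag (62.2 to 70.8) and 60% without Flag (57.4 to 62.6) lacked V5 Olig2. These intervals overlapped, as did those of every other bin, and the 2.98 points carry no interval. Overlap of separate intervals, here and below, does not decide whether the shares differ. No interval of the difference was built within bins. Even the largest gap was small beside the fall from the weakest to the strongest bin.

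**Figure D3:**
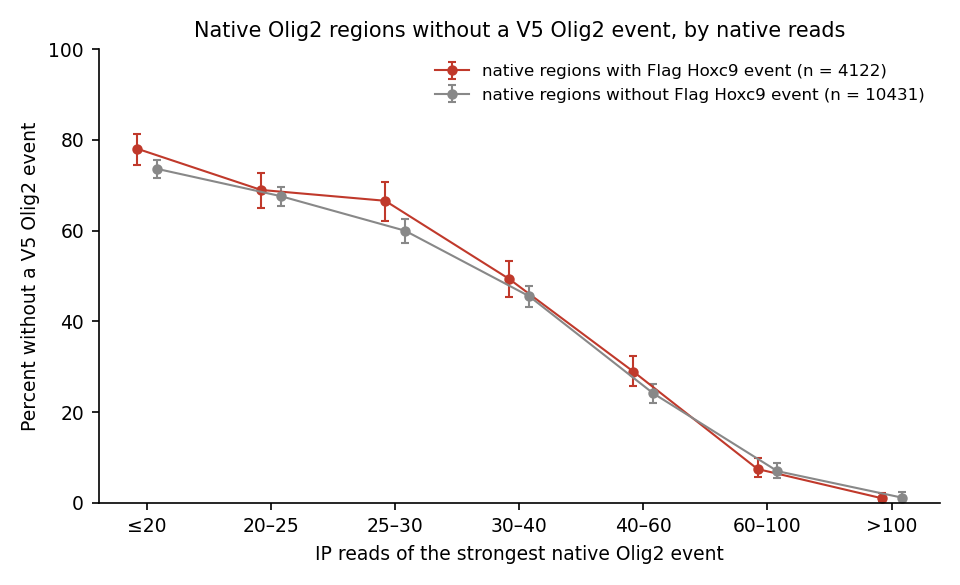
Percent of native Olig2 regions without a V5 Olig2 event (vertical axis) by IP reads of the strongest native event (horizontal axis), for regions with (red) and without (grey) a Flag Hoxc9 event; bars are Wilson 95% intervals. Both curves fall together, from 78.1% and 73.6% in the weakest bin to 1.02% and 1.17% in the strongest.

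At like native reads, members had the higher Flag Hoxc9 medians, and the V5 Hoxc9 shares of members and both-Olig2 regions had overlapping intervals. Among regions with 40 to 60 native IP reads, 210 members had a median of 107.9 Flag IP reads and 516 both-Olig2 regions one of 88.7. A V5 Hoxc9 event was present at 39.5% of these members (33.2 to 46.3) and 36.2% of these both-Olig2 regions (32.2 to 40.5). With 20 to 30 native IP reads the Flag medians were 84.4 at 692 members and 74 at 327 both-Olig2 regions, and the V5 Hoxc9 shares were 37.4% (33.9 to 41.1) and 35.8% (30.8 to 41.1). Control reads moved with these values: with 40 to 60 native reads, the median control reads of the native event were 1.65 at members and 1 at both-Olig2 regions, and those of the Flag event were 7.95 and 6.2. Their part in the higher Flag reads was not tested.

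The other tag on Hoxc9, which the rule did not use, was found at members more often than at Flag regions in general. A V5 Hoxc9 event was present at 646 of 1695 members (38.1%, 35.8 to 40.4), beside 19.5% of all 43810 regions with Flag. It was present at 40.0% of both-Olig2 regions (971 of 2427, 38.1 to 42.0), at 35.0% of the 277 regions with V5 Olig2 and Flag but no native event (29.6 to 40.8), and at 17.3% of Flag regions without Olig2 (6825 of 39411, 16.9 to 17.7). Native regions with neither Flag nor V5 Olig2 held V5 Hoxc9 in 34 of 4927 cases (0.690%). The V5 Hoxc9 and V5 Olig2 lists share the anti-V5 antibody. Regions with V5 Olig2 were thus chosen for an anti-V5 event, and members for lack of one. What part this has in the shares was not tested. Members fell 1.90 percentage points below both-Olig2 regions, with an interval of the difference from -4.91 to 1.14 that includes 0. The interval lay below 0 in 4 other settings: -6.07 to -0.16 with a gap of 500 bp, -6.28 to -0.50 with 1000 bp, -11.7 to -2.46 with events at or above their list's median IP reads, and -11.2 to -0.24 with the 11000 strongest events per list. With control reads at or below the list's median the difference was 0.57 points the other way (-4.85 to 6.03). With native IP reads held alike members were also higher, with intervals that overlapped. The shares were 37.4% of members and 35.8% of both-Olig2 regions with 20 to 30 native IP reads. They were 39.8% and 34.5% with 30 to 40, and 39.5% and 36.2% with 40 to 60. Members also had the higher Flag medians in these bins, and other native bins were not compared. Members stood 20.8 points above Flag regions without Olig2 (18.5 to 23.2), and 11.9 points (9.69 to 14.3) with events of fold 10 or more. The share of members with V5 Hoxc9 was 26.5% with that fold and 64.4% with the 11000 strongest events per list, where the gap was 13.9 points (9.04 to 18.4).

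Flag events were stronger at members, and within bins of Flag reads the gap was smaller. With at most 50 Flag IP reads, V5 Hoxc9 was present at 12.8% of 384 members and 5.06% of 17277 Flag regions without Olig2. With 100 to 200 reads the shares were 45.8% of 428 and 33.0% of 6184, and with 200 to 400 reads 81.1% of 212 and 63.8% of 2325. Above 400 reads they came to 93.4% of 106 (87.0 to 96.8) and 89.7% of 862 (87.5 to 91.5), intervals that overlap. Members were higher in 5 of 5 bins, by 10.7 points when weighted by members. They were higher in 2 of 5 bins against both-Olig2 regions, with a weighted difference of -1.45 points.

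The gap was also present with the search window or the control reads held alike, in settings chosen after the data were seen. Members hold at least 2 events and so tend to be wider. Counting only V5 Hoxc9 events within 100 bp of the strongest Flag event gave 36.1% of members and 16.4% of Flag regions without Olig2, and 9.76 points between them within bins of Flag reads. Within joint bins of Flag IP reads and Flag control reads the difference was 13.0 points, and members were higher in 18 of the 19 bins with at least 20 regions on both sides. Against both-Olig2 regions the joint bins gave -3.28 points, and members were higher in 6 of 19 such bins.

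**Figure D4:**
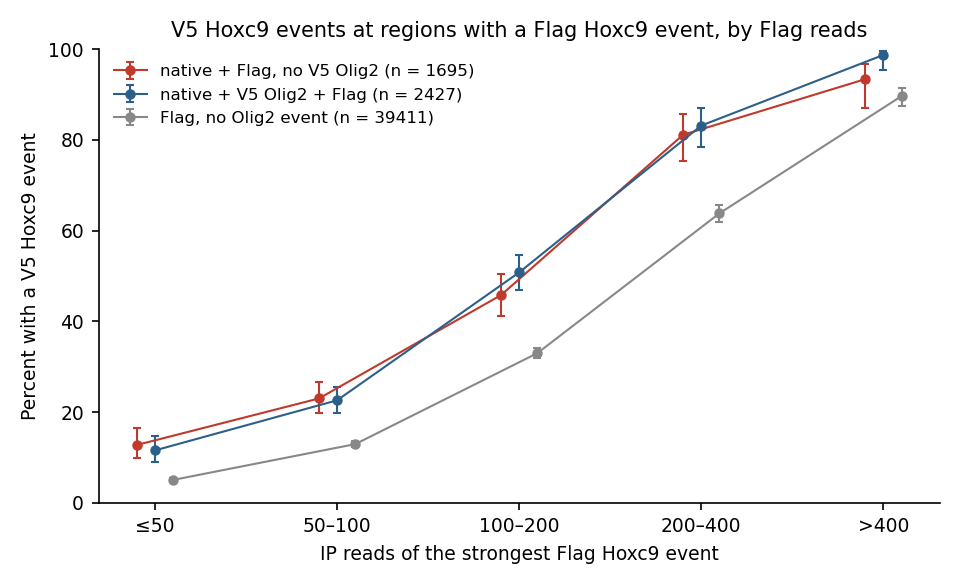
Percent of regions with a V5 Hoxc9 event (vertical axis) by IP reads of the strongest Flag Hoxc9 event (horizontal axis), for members (red), regions with both Olig2 events and Flag (blue) and Flag regions with no Olig2 event (grey); bars are Wilson 95% intervals. Members rise from 12.8% to 93.4% close to the blue curve and lie above the grey curve in all 5 bins.

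Within the members, the V5 Hoxc9 event went with Flag reads and hardly with Olig2. The 646 members with V5 Hoxc9 had a median of 168.6 Flag IP reads, and the 1049 without it 66. Their native Olig2 medians were 26 and 25.7. Across members, IP reads were related weakly between native Olig2 and Flag Hoxc9 (rho 0.191, n = 1695) and between native Olig2 and V5 Hoxc9 (rho 0.234, n = 646), and more strongly between the 2 Hoxc9 tags (rho 0.653, n = 646). The points share the 4 libraries, and IP reads also moved with control reads (rho 0.489 in the native list and 0.313 in the Flag list), so the weak relations are no finding. From the members with at most 20 native IP reads to those with 40 to 60, median Flag IP reads went from 69.6 to 107.9. Median control reads of the Flag event went from 2.1 to 7.95 over the same bins. The V5 Hoxc9 share over those bins went from 36.0% (31.6 to 40.6) to 39.5% (33.2 to 46.3), a difference within those intervals. It was 54.3% (40.2 to 67.8) of the 46 members with 60 to 100 native IP reads.

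A few members had very strong Flag Hoxc9 and no V5 Hoxc9. Of 106 members with more than 400 Flag IP reads, 7 had no V5 Hoxc9 event. At such Flag reads V5 Hoxc9 was present at 156 of 158 both-Olig2 regions (98.7%) and 773 of 862 Flag regions without Olig2 (89.7%), beside 99 of the 106 members (93.4%). The strongest of the 7, on chromosome 18, had 637 Flag IP reads (rank 404) against 14.5 control reads, beside 28 native IP reads. On chromosome 7 at 59009890 to 59009900 the Flag event had 611.2 IP reads (rank 447) against 8.2 control reads, beside 33 native IP reads. On chromosome 12 at 95662632 to 95662676 it had 592 IP reads (rank 482) against 6.2 control reads, beside 28 native IP reads. These 7 were looked up after the values were seen.

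Olig2 and Hoxc9 events lay close together in the members, though not as close as events of 1 factor. The median distance from the strongest native Olig2 to the strongest Flag Hoxc9 event was 43 bp (quartiles 19 to 85), and 944 of 1695 members (55.7%) had them within 50 bp. In both-Olig2 regions the median was 46 bp and 53.8% lay within 50 bp. Chaining bounds these distances from above, since each step is at most 200 bp, so their closeness follows in part from the rule. By comparison, V5 and Flag Hoxc9 events, in the 646 members that held both, were a median of 23 bp apart, with 78.8% within 50 bp. The Olig2 events in both-Olig2 regions were a median of 15 bp apart, with 87.8% within 50 bp. Strength was not held alike: these 646 members had a median of 168.6 Flag IP reads against 86.6 at all members. In the same 646 members, native Olig2 and Flag Hoxc9 events were a median of 47 bp apart, with 52.9% within 50 bp. Over all members that median was 42 bp with at most 50 Flag IP reads and 55 bp with more than 400. Both-Olig2 regions had 57.6 native IP reads against 26 at members. What part strength has in the distances was not tested beyond these values. Where a member held V5 Hoxc9, it lay nearer to the Flag event than the native Olig2 event did in 432 of 646 members (66.9%), the reverse held in 207, and 7 were equal. In 11 members the native and Flag events had the same position.

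**Figure D5:**
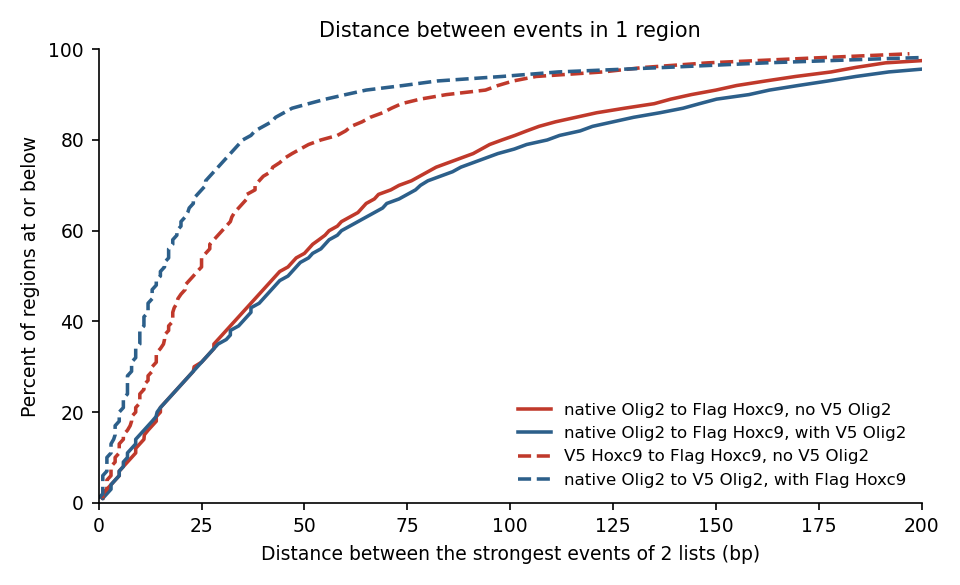
Cumulative percent of regions by the distance in bp between the strongest events of a pair of lists, shown to 200 bp. Solid lines give native Olig2 to Flag Hoxc9 in members (red, median 43 bp) and in regions with both Olig2 events (blue, median 46 bp); dashed lines give pairs of lists of 1 factor, with medians of 23 bp (Hoxc9, red) and 15 bp (Olig2, blue).

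Most members were compact, and few held more than 1 Olig2 event. The median member spanned 61 bp from its outermost events (quartiles 29 to 134.5), 155 spanned more than 200 bp, and 901 (53.2%) held exactly 2 events. By the rule, a region of 2 events can span little more than 200 bp. A single native Olig2 event was present in 1647 members, and 48 (2.83%) had 2 or more, against 539 both-Olig2 regions (22.2%). Flag Hoxc9 events numbered 2 or more in 357 members (21.1%), in 24.1% of both-Olig2 regions and in 9.81% of Flag regions without Olig2. Chaining can join Flag events through an Olig2 event, which the last class lacks, and Flag events were stronger at members. What part these have in the difference was not tested. The widest member, on chromosome 3 at 68087231 to 68087933, held 9 events, with at most 25.9 native, 479.5 Flag and 110.9 V5 Hoxc9 IP reads. The member on chromosome 11 at 14082011 to 14082679 held the most events, 10, of which 5 were Flag Hoxc9 and 3 V5 Hoxc9. Its nearest V5 Olig2 event was 1626544 bp away. The third widest lay on chromosome 13 at 78031861 to 78032411 with 4 Flag events and 1 native event.

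The members with most control reads at the Flag event differed in how far binding stood above control. On chromosome 13 at 28508350 to 28508454 the Flag event had 1250 IP reads against 49.9 control reads (fold 25.1), and V5 Hoxc9 had 376 IP reads. A member on chromosome 10 at 84914567 to 84914610 had 475 Flag IP reads against 31.2 control reads (fold 15.2) and 43 native IP reads against 5.5 (fold 7.8). One on chromosome 18 had 108 Flag IP reads against 31.2 control reads, a fold of only 3.5.

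Few members missed a V5 Olig2 event by a narrow margin. A V5 Olig2 event lay within 300 bp of 32 members (1.89%), within 1000 bp of 126 (7.43%) and within 10000 bp of 399 (23.5%), and the median distance was 47291 bp. Native regions with neither V5 Olig2 nor Flag had nearly the same shares, 1.89% within 300 bp and 7.41% within 1000 bp. Flag regions without Olig2 had 0.502% and 2.79%. The 32 nearest members had medians of 28.1 native and 78.2 Flag IP reads. Just inside the rule, 8 both-Olig2 regions had their nearest V5 Olig2 event more than 100 and up to 200 bp from another list's event, with medians of 33.4 and 56.2. The closest miss, on chromosome 1 at 174336384 to 174336444, had a V5 Olig2 event of 29.9 IP reads at 209 bp, beside 27.4 native and 91 Flag IP reads. The next were on chromosome 2 at 26356227 to 26356294 (212 bp) and chromosome 16 at 33529814 to 33529865 (213 bp). The farthest V5 Olig2 event still inside a region lay 193 bp from its neighbour, on chromosome 10 at 66567225 to 66567468, with 18 V5 Olig2 IP reads. It was followed by chromosome 7 at 123046858 to 123047114 (187 bp) and chromosome 5 at 98609680 to 98609887 (185 bp).

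Members had a V5 Olig2 event within 10000 bp about as often as native regions with neither V5 Olig2 nor Flag did. Among native regions with neither V5 Olig2 nor Flag, 23.7% had a V5 Olig2 event within 10000 bp, beside the 23.5% of members. Among Flag regions without Olig2 it was 12.8%. The median distances were 42597 bp and 87530 bp. Only 92 members (5.43%) had another member within 10000 bp, and 181 (10.7%) had a both-Olig2 region that near. In 2 places 3 members lay within 10000 bp of the next, on chromosome 14 between 59250176 and 59256949 and on chromosome 1 between 191966799 and 191979155. The chromosome 1 group also held a both-Olig2 region, and its strongest Flag event had 1061.9 IP reads.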

How the data were processed

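Alignment was to mm9 with Bowtie 0.12.5, per the submitters' processing notes. Event caller, settings and control library: not given in the sources used here. The deposited event tables hold, per the file headers, estimated counts of IP and control reads, the fold (ratio) of IP over control, and the −log10 of p and q. A fold listed as 9999.9 stands for 0 control reads and counts as 10 or more. A pair of deposited score columns was not used. Each interval list matched its event table in position and −log10 p; both give the same start, so positions may be 1 bp off.

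Each region took the strongest event of each list by IP reads. Bins exclude their lower and include their upper edge. Shares carry Wilson 95% intervals, and differences of shares intervals built from those. No test was run. The members, comparison regions and naming rules were chosen with earlier results of these data known. Named by rule were the 10 best regions by worse rank over native and Flag, the 5 best over 3 lists among those with V5 Hoxc9 (the leading 5 of the same 10), the 3 nearest to the threshold on either side, the 3 with most control reads and the 3 widest. The chaining was tested on simulated data. Software: Python (3.11.15), numpy (2.4.6), pandas (2.3.3), matplotlib (3.10.9).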

Additional observations from a re-analysis of the deposited data

Results flagged for a closer look

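Binding events on unplaced contigs were looked at because the rule for members leaves them out. There were 22 in all: Olig2 had 3 native and 4 V5 events, and Hoxc9 had 5 V5 and 10 Flag events. The native events had 17 to 100 IP reads. These events formed 18 regions, and 0 of them held native Olig2 with Flag Hoxc9 and without V5 Olig2.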

How the results depend on the processing

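Of 117 alternative values under 18 settings, 77 stayed within the 95% interval of the value reported (within 1.5 times for the number of members), 39 moved beyond it and 1 both left it and changed sign. The number of members was 719 with events at or above their list's median IP reads, 527 with control reads at or below the median and 419 with the 11000 strongest events per list, by construction fewer. In that order, the share of native and Flag regions lacking V5 Olig2 was 39.0%, 45.9% and 32.1%, and it was 49.0% with a fold of 10 or more. Lacking V5 Olig2 with minus without Flag went from -6.11 to -2.64 points with 11000 events, and to 2.98 within bins of native reads, with the sign changed. The V5 Hoxc9 share of members was 26.5% (fold), 33.2% (control) and 64.4% (11000 events). Its difference from Flag regions without Olig2 was 11.9, 18.0 and 13.9 points in those settings, 10.7 within bins of Flag reads and 13.0 within joint bins. Its difference from both-Olig2 regions was -7.09 (median IP), -5.65 (11000 events), -3.13 and -3.40 (gaps of 500 and 1000 bp) and, with the sign changed but inside the interval, 0.57 (control). Medians at members were, for fold, median IP, control and 11000 events, 26.1, 43, 21 and 33.9 native IP reads and 114, 125.3, 63.7 and 202 Flag IP reads; the Flag median was 97.7 with events summed. For V5 Hoxc9 they were 93.95 (median IP), 46 (control) and 96.9 (11000 events). The native to Flag distance was 35, 55 and 65 bp with gaps of 100, 500 and 1000 bp, 40 with median IP and 37 for the nearest pair. Where not fixed by construction, the cause was not tested.

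Bins of native reads, of Flag control reads and joint bins, and the 100 bp window, were chosen after seeing the data. Motif content and distance to gene starts, with their alternative windows, were not run, since no mm9 sequence or annotation was used here. No paired analysis was possible because each condition had 1 list. Unknown library totals limit any reading of an absent event: it means only that none was listed.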

Other observations

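Members were found on every chromosome used. The share of native and Flag regions that lacked V5 Olig2 ran from 35.7% on chromosome 5 (91 of 255, 30.1 to 41.7) to 47.0% on chromosome 4 (126 of 268, 41.1 to 53.0). On X it was 44.2% (23 of 52, 31.6 to 57.7). As a share of all native regions, members ran from 7.98% on chromosome 11 (81 of 1015, 6.47 to 9.81) to 13.5% on chromosome 13 (95 of 704, 11.2 to 16.2). A V5 Hoxc9 event was present at 23.7% of the 76 members on chromosome 10 (15.5 to 34.4) and 47.3% of the 93 on chromosome 7 (37.5 to 57.4), the lowest and highest shares. Intervals of the lowest and highest chromosome overlapped for the share lacking V5 Olig2 and did not for the other 2 shares. The extremes were picked among 20 chromosomes after their values were seen.

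Members without V5 Hoxc9 in the region seldom had it close by. Of these 1049, 79 (7.53%) had a V5 Hoxc9 event within 1000 bp, beside 7.49% of the 1456 both-Olig2 regions and 6.07% of the 32586 Flag regions without Olig2 that also lacked V5 Hoxc9. Another region of the same kind lay within 10000 bp of 92 of 1695 members (5.43%) and of 314 of 2427 both-Olig2 regions (12.9%). The larger set has more neighbours of its kind by number alone, and what part this has in the difference was not tested.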
